A study of Mus musculus with 8 samples.

Results

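Cytoplasmic polyadenylation lengthens the poly(A) tails of stored maternal mRNAs and is one of the main ways in which a transcriptionally silent oocyte switches translation on. CPEB proteins bind a U-rich cytoplasmic polyadenylation element (CPE) in the 3′ end of an mRNA, the cleavage and polyadenylation specificity factor (CPSF) recognises the AAUAAA hexamer nearby, and a poly(A) polymerase adds the tail. In mouse oocytes CPEB1 is known for its role in the translation of *Mos* and *Ccnb1* mRNAs during meiotic maturation. The mRNAs described here are those of 10 genes of this machinery, chosen by symbol: *Cpeb1*, *Cpeb2*, *Cpeb3* and *Cpeb4*, the polymerases *Papd4* and *Papola*, and the CPSF subunits *Cpsf1*, *Cpsf2*, *Cpsf3* and *Cpsf4*. All 10 symbols were found among the 25574 genes of the FPKM table (fragments per kilobase of gene, scaled to the mapped reads of the library).

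The samples were fully grown oocytes from 8 weeks old CD1 mice primed with gonadotropin, isolated with 100 µM IBMX and cultured without it for 180 min. During this culture the oocytes that had undergone nuclear envelope breakdown (NEBD) were selected. At its end they were kept for 10 min in cycloheximide at 0.1 mg/mL. Each lysate of 200 pooled oocytes was separated on a sucrose gradient. RNA from the non-polysomal (NP) or the polysomal (P) fractions was depleted of rRNA, amplified and sequenced in 4 NP and 4 P libraries. The NP pool covered the ribosomal subunits and single ribosomes, and the top fraction of the gradient was in neither pool. NP and P therefore differ in the part of the gradient and share every other treatment, and no untreated oocytes were compared. FPKM is relative to the rest of the same library, so less of an mRNA in a fraction and more of the others cannot be told apart.

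The number of reads or fragments to which each library was scaled, recovered from the steps between FPKM values, spanned 1299377 to 7594637 for the NP libraries and 2677946 to 4699328 for the P libraries. At these numbers, 49.2 to 50.6% of the genes matched to an annotated exon length had a whole number of steps. All 10 listed oocyte markers were above 1 FPKM on average in both datasets, with a summed level of 5635 to 11211 FPKM in NP and of 7584 to 34941 FPKM in P, led by *Gdf9*, *Zp3*, *Bmp15* and *Zp2*. For *Figla* alone among them all NP libraries (7.81 to 17.4 FPKM) lay above all P libraries (up to 3.44 FPKM). Of 12 markers of cumulus and granulosa cells, *Foxl2*, *Amhr2*, *Inhba*, *Has2* and *Ptx3* were listed at 0 in all 8 libraries. The list summed to between 15.3 and 94.4 FPKM in NP and between 2.38 and 64.0 FPKM in P, mostly from *Cyp19a1* (0.190 to 75.2 FPKM), *Nr5a2* (0.487 to 61.4 FPKM) and, in P replicate 3, *Kitl* (10.3 FPKM). Their part in the results was not tested.

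The 10 mRNAs were present at very different levels, and the order was led by the same genes in both datasets. *Cpeb1* had the highest mean over the 8 libraries, 244 FPKM, followed by *Cpsf4* with 111 FPKM and *Cpsf3* with 104 FPKM. These 3 were the most abundant members in 7 of the 8 libraries, the exception being P replicate 4, in which *Cpsf1* (38.7 FPKM) stood just above *Cpsf3* (37.6 FPKM). *Papola* (20.7 FPKM), *Cpsf2* (13.5), *Cpsf1* (13.4) and *Cpeb3* (12.9) formed a middle group by mean FPKM, and *Cpeb4* (3.82), *Papd4* (2.42) and *Cpeb2* (0.998) were the lowest. Of the 9 neighbouring pairs in this order, only *Cpsf3* was above its lower neighbour, *Papola*, in 8 of 8 libraries, with a mean difference of 2.56 ± 0.56 on the log2(FPKM + 1) scale (SD over 8 libraries). *Cpeb1* was above *Cpsf4* in 7 of 8 libraries, by 1.16 ± 1.28 on the same scale, and the neighbours within the middle group differed by less than their spread between libraries. The NP and P pools were taken from the same 4 gradients, so the 8 libraries are not 8 independent units, and no test is given for this order.

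**Figure D1:**
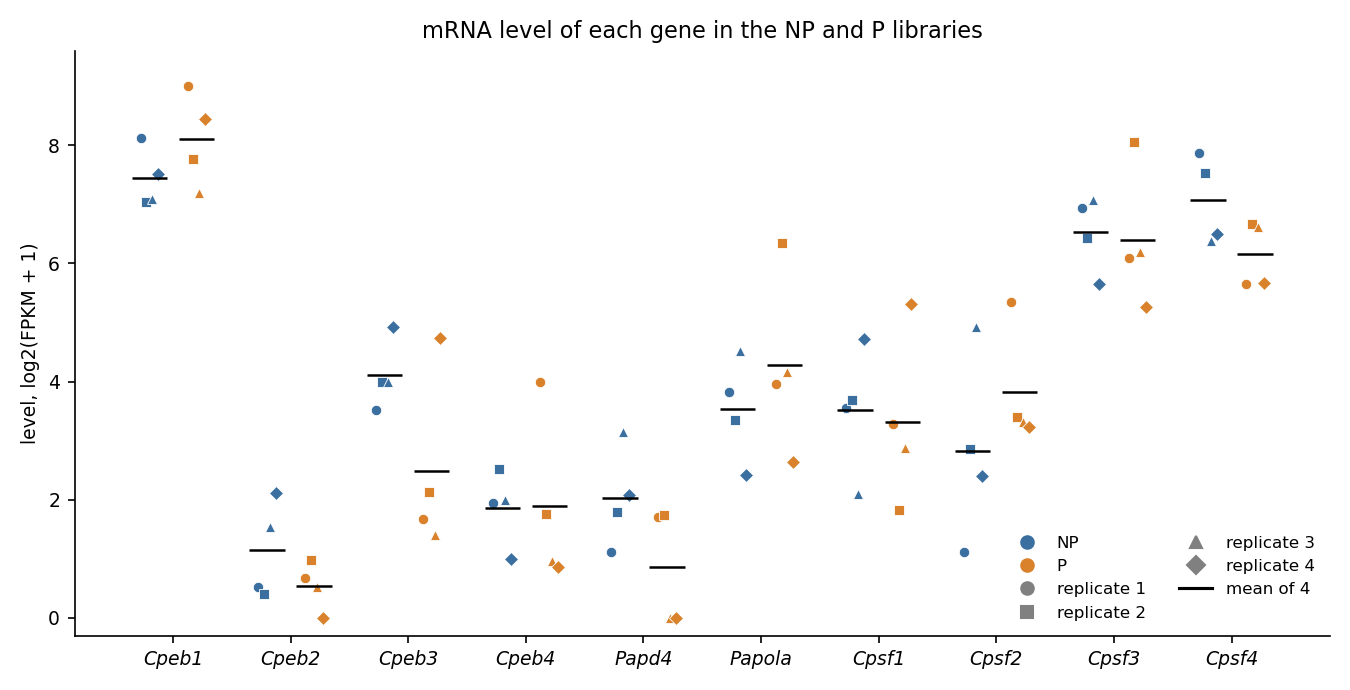
Level of each mRNA as log2(FPKM + 1) in the 4 NP (blue) and 4 P (orange) libraries, with 1 marker shape per replicate number and a black line at the mean of 4. *Cpeb1*, *Cpsf3* and *Cpsf4* lie highest, and for each of the 10 genes the NP and P points overlap.

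None of the 10 mRNAs passed the test between P and NP. The test was limma's on log2(FPKM + 1), run over 14292 genes whose mean FPKM passed 0.1 in NP, in P or in both, a filter that all 10 members passed, at a Benjamini-Hochberg adjusted p below 0.1. The test called 0 of 10 members, against 3 of all genes tested (0.021%). These were *Tmem104*, *Morc1* and *AC132131.1*, named after their values were seen, and each was higher in NP. At an unadjusted p below 0.05 it found 0 members and 1422 genes (9.95%). The count of 3 genes depended on single libraries: it fell to 0 when NP replicate 1, 2, 3 or 4 or P replicate 3 was left out, and rose to 5 without P replicate 1. For no member did all 4 libraries of a dataset lie above all 4 of the other, which was the case for 0.357% of genes in favour of P and for 5.92% in favour of NP.

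The mean FPKM was higher in P for 6 members and higher in NP for 4. It was more than 2-fold higher in P for 1 member, *Papola*, against 16.9% of all genes tested, and more than 2-fold higher in NP for 3 members, *Cpeb2*, *Cpeb3* and *Papd4*, against 40.6%. On the log2(FPKM + 1) scale, 4 of 10 members had a positive fold change (P over NP), against 28.6% of all genes, and their median was −0.16 against −0.39 for all genes. The sign of these values rests on the scaling: quantile normalization moved the median of all genes to −0.02 and that of the members to 0.27, and centring every library on its median moved them to 0.57 and 0.80. Relative to the median of all genes the members' median was 0.23 as deposited, 0.29 after quantile normalization and 0.65 with a pseudocount of 0.1, and it fell to 0.06 without P replicate 1 and to 0.08 without P replicate 2. Fold changes of single members are therefore given with their difference from the median of all genes, as deposited.

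**Figure D2:**
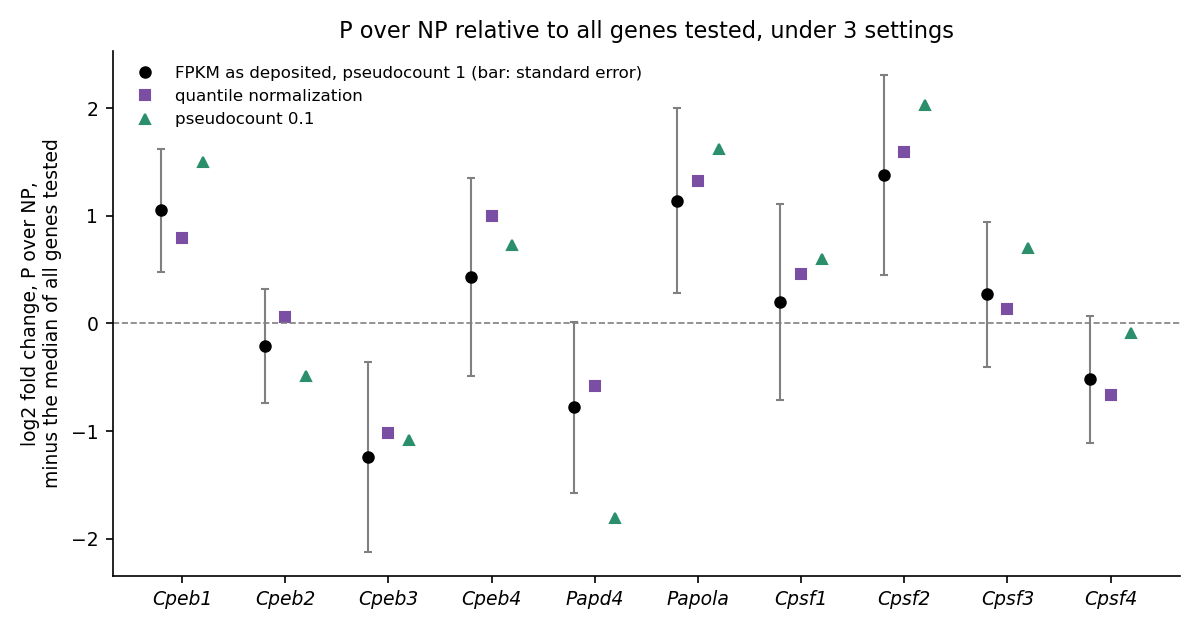
Log2 fold change of each mRNA, P over NP, minus the median of all genes tested (dashed line at 0), with FPKM as deposited and a pseudocount of 1 (black, bars: standard error from limma, n = 4 and 4), after quantile normalization (purple) and with a pseudocount of 0.1 (green). *Cpsf2* and *Papola* lie highest, and *Cpeb3*, *Papd4* and *Cpsf4* lie below the line in all 3 settings.

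*Cpeb1* (chr7:81347026-81455465, minus strand, GRCm38), which encodes the CPE-binding protein best studied in oocytes, was measured at 278, 131, 135 and 182 FPKM in NP replicates 1 to 4 and at 513, 216, 146 and 348 FPKM in P replicates 1 to 4. It lay between the 92.3 and 98.3 percentile of the genes above 0 in each library. The mean was 306 ± 161 FPKM in P and 181 ± 68.5 FPKM in NP (SD, n = 4 each), and 2 P libraries lay above the highest NP library. Its log2 fold change was 0.66 (SE 0.57), 1.05 above the median of all genes, with an adjusted p of 0.665 by limma, and leaving out P replicate 1 lowered it to 0.36 while leaving out P replicate 3 raised it to 0.96. These values rest on 712 to 10098 whole steps of FPKM per library.

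The relatives of *Cpeb1* were much less abundant. *Cpeb3* (chr19:37021291-37208601, minus strand), which encodes an RNA-binding protein of the same family, was measured at 10.5, 14.9, 15.0 and 29.5 FPKM in NP and at 2.21, 3.37, 1.64 and 25.6 FPKM in P. Each NP library was above 3 of the P libraries, and P replicate 4 was above 3 of the NP libraries. The mean was 17.5 ± 8.28 FPKM in NP and 8.21 ± 11.6 FPKM in P (SD, n = 4 each), a P/NP ratio of 0.469 that became 0.137 without P replicate 4. The log2 fold change of −1.63 (SE 0.88) was the lowest of the 10 members (−1.24 from the median of all genes), with an unadjusted p of 0.0857 and an adjusted p of 0.537 by limma. Without P replicate 4 the fold change was −2.38, with an unadjusted p below 0.05 that did not pass the adjustment. In that fit 1317 of 14262 genes tested had an unadjusted p below 0.05.

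*Cpeb4* (chr11:31872211-31935634, plus strand), another member of the family, was at 2.85, 4.71, 2.98 and 0.992 FPKM in NP and at 14.9, 2.40, 0.954 and 0.821 FPKM in P. P replicate 1 alone held 78.1% of the P signal, and without it the P/NP ratio of the means went from 1.65 to 0.483. On the log2 scale the fold change was 0.03 (SE 0.92; limma, adjusted p = 0.989), 0.43 above the median of all genes, and it was −0.66 without P replicate 1. *Cpeb2* (chr5:43233463-43289724, plus strand) was the lowest member, at 0.440, 0.324, 1.91 and 3.31 FPKM in NP and at 0.598, 0.964 and 0.442 FPKM in P replicates 1 to 3, and it was listed at 0 in P replicate 4. The 4 P libraries together held 56 steps of *Cpeb2* and the 4 NP libraries 291, with as few as 3 in NP replicate 2. Its log2 fold change was −0.60 (SE 0.53; limma, adjusted p = 0.671), only 0.21 below the median of all genes.

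Within each library, *Cpeb1* made up most of the summed FPKM of the 4 CPEB mRNAs. Its share was 95.3, 86.7, 87.1 and 84.3% in NP and 96.7, 97.0, 98.0 and 92.9% in P. The share of *Cpeb3* was 3.59 to 13.7% in NP and 0.417 to 6.84% in P. *Cpeb1* exceeded *Cpeb3* by a factor of 6.16 to 26.5 in NP and of 13.6 to 232 in P. These shares do not depend on how libraries are scaled against each other, and for both genes they overlapped between the datasets.

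Both poly(A) polymerases were modest in level. *Papd4* (chr13:93147400-93192283, minus strand, *Tent2* in GENCODE M21) encodes Gld2, the cytoplasmic poly(A) polymerase, and was measured at 1.17, 2.47, 7.85 and 3.23 FPKM in NP and at 2.27 and 2.33 FPKM in P replicates 1 and 2. It was listed at 0 in P replicates 3 and 4, in which 3 steps would have amounted to at most 0.360 and 0.598 FPKM, as the shortest fitting gene length was used. *Gapdh* was also listed at 0 in P replicates 2, 3 and 4, but it was low elsewhere too. It stood at 0.117 to 3.42 FPKM in NP and at 0.472 FPKM in P replicate 1. Of 15 housekeeping genes looked at, no other was listed at 0 in any library. A listed 0 is given here as such and not as an absence. The log2 fold change of *Papd4* was −1.17 (SE 0.79; limma, adjusted p = 0.618; −0.78 from the median of all genes), from 166 steps in NP and 34 in P. Reads of *Papd4* could be shared with a near-identical locus, *Gm15975*, whose transcript matches it over 1439 bases at 96.1% identity and has no row of its own, so the level of *Papd4* is uncertain. A transcript of *Gm18667*, also without a row, matches *Papd4* over 485 bases at 87.4% identity.

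*Papola* (chr12:105784694-105838944, plus strand), which encodes the canonical poly(A) polymerase of nuclear mRNA processing, was at 13.1, 9.22, 22.0 and 4.35 FPKM in NP and at 14.6, 80.0, 17.0 and 5.21 FPKM in P. Apart from P replicate 2, the P libraries lay inside the NP range. The mean of 29.2 ± 34.3 FPKM in P was 2.40 times that in NP, 12.2 ± 7.47 FPKM (SD, n = 4 each), and this ratio became 1.01 without P replicate 2. Its log2 fold change was 0.75 (SE 0.86; limma, adjusted p = 0.727), 1.14 above the median of all genes, and 0.06 without that library. A transcript of *Gm14245*, which has no row in the table, matches *Papola* over 1895 bases at 87.0% identity.

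The CPSF subunits split into 2 abundant and 2 less abundant mRNAs. *Cpsf4* (chr5:145167213-145182041, plus strand), a zinc-finger subunit that binds the hexamer together with Wdr33, was measured at 234, 183, 81.8 and 89.4 FPKM in NP and at 49.4, 100.1, 97.6 and 50.1 FPKM in P. The 2 lowest P libraries lay below every NP library and the other 2 above the 2 lowest NP libraries. The mean was 147 ± 74.0 FPKM in NP and 74.3 ± 28.4 FPKM in P (SD, n = 4 each), 1.98 times higher in NP, and the log2 fold change was −0.91 (SE 0.59; limma, adjusted p = 0.599). This difference was 0.52 below the median of all genes, and median centring turned its sign, to 0.04.

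*Cpsf3* (chr12:21286297-21315056, plus strand), which encodes the endonuclease of the complex, was at 122, 85.4, 134 and 49.2 FPKM in NP and at 66.9, 266, 72.2 and 37.6 FPKM in P. P replicate 2 was the highest of the 8 libraries and P replicate 4 the lowest. The log2 fold change was −0.12 (SE 0.67; limma, adjusted p = 0.943), 0.27 above the median of all genes, and its sign changed when NP replicate 1, NP replicate 3 or P replicate 4 was left out and under both other scalings. Of its exons, 3.71% overlap *Itgb1bp1* on the opposite strand, whose reads cannot be separated in libraries that do not mark strand, and smaller shares of the exons of *Cpeb2*, *Cpeb3*, *Cpsf1* and *Cpsf2* (0.248 to 2.56%) overlap genes on the opposite strand.

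*Cpsf2* (chr12:101975974-102005993, plus strand), a relative of *Cpsf3* without known nuclease activity, was at 1.18, 6.23, 29.4 and 4.31 FPKM in NP and at 39.7, 9.51, 8.93 and 8.36 FPKM in P. All P libraries lay above 3 of the NP libraries, and NP replicate 3 lay above 3 of the P libraries. The log2 fold change of 0.99 (SE 0.93) was the highest of the 10 members, 1.38 above the median of all genes, with an adjusted p of 0.685 by limma. It was 1.69 without NP replicate 3 and 0.42 without NP replicate 1. *Cpsf1* (chr15:76595809-76607591, minus strand), the largest subunit and a scaffold of the complex, was at 10.7, 11.9, 3.29 and 25.3 FPKM in NP and at 8.72, 2.56, 6.33 and 38.7 FPKM in P. Replicate 4 was the highest library of *Cpsf1* in both datasets, and the log2 fold change was −0.19 (SE 0.91; limma, adjusted p = 0.932), 0.20 above the median of all genes.

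For several members most of the P signal came from 1 library. For 6 of 10 members, 1 P library lay apart from the other 3 by Dixon's criterion on FPKM, against 30.5% of all genes tested, whereas no member had such an NP library, against 22.3%. On the log2(FPKM + 1) scale only *Cpsf2* had such a P library, against 20.2% of all genes. The median share of the P signal held by the highest P library was 59.9% over the members and 61.9% over all genes, and in NP it was 43.7% over the members and 50.5% over all genes, where 4 equal libraries would each hold 25%. P replicate 1 was the highest P library for 3 members, P replicate 2 for 5 and P replicate 4 for 2, so no single library was highest for all of them. The highest library held a larger share in NP than in P for *Cpeb2*, *Papd4*, *Cpsf2* and *Cpsf4*, and a larger share in P for the other 6 members. By this share the spread of the members in P was close to that of all genes.

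**Figure D3:**
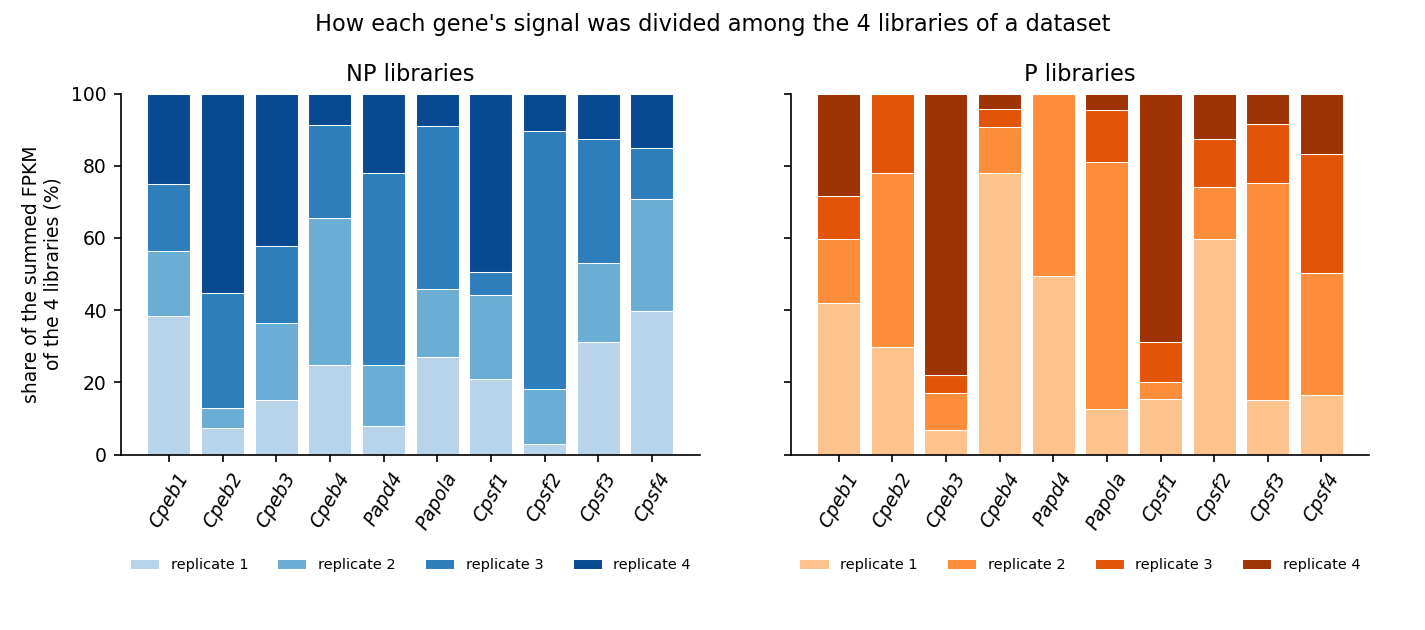
Share of the summed FPKM of the 4 NP (left, blue) and of the 4 P libraries (right, orange) held by each library, from replicate 1 (lightest) to replicate 4 (darkest). P replicate 4 holds most of the P signal of *Cpeb3* and *Cpsf1*, P replicate 2 most of that of *Papola* and *Cpsf3*, and P replicate 1 most of that of *Cpeb4* and *Cpsf2*.

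The annotated 3′ ends of these mRNAs were searched for the hexamer and the CPE. The ends used in these oocytes were not measured. In the last 100 bases of the coding transcript that ends farthest downstream in GENCODE M21, 7 of 10 members held a hexamer (AATAAA or ATTAAA in the DNA), against 75.3% of 21832 coding genes, and *Papola*, *Cpsf1* and *Cpsf3* held neither form. A CPE (TTTTAT or TTTTAAT, read on the transcript strand) was found in 0 of 10 members, against 16.6% of coding genes, and in 3 of 10 mRNAs listed as cytoplasmically polyadenylated in maturing oocytes: *Plat*, *Btg4* and *Dcp1a*. The search found none in *Mos* and *Ccnb1*, so a count of 0 here does not show that an mRNA lacks a CPE. A CPE of the second form can share bases with a hexamer, as it did in *Dcp1a*. For *Papd4* and *Cpsf2* the annotated end lay outside the coordinates that the FPKM table gives for the gene. The following stretches of 30 bases come from these transcripts, with their positions in GRCm38. They set the hexamers of 3 members beside the CPEs of *Btg4* and *Plat*. Capitals mark the hexamer in the members and the CPE in the other two.
Cpeb3, chr19:37021294-37021323, minus strand: tggatAATAAAacgacagaatgagcagaac
Cpeb4, chr11:31935605-31935634, plus strand: gatgttgaatgAATAAAacttttaactcag
Cpsf4, chr5:145182012-145182041, plus strand: tatgaggttgATTAAAaagcttgtttttta
Btg4, chr9:51119799-51119828, plus strand: ataaatccctTTTTATgtctttttaaaagt
Plat, chr8:22782746-22782775, plus strand: tatatttataTTTTAATctattttagtttt

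In *Cpeb3*, *Cpeb4* and *Cpsf4* the hexamer began 28, 19 and 20 bases before the annotated end, and *Cpsf4* carried the ATTAAA form. The CPE of *Plat* began 89 bases and that of *Btg4* 67 bases before the end. A match of these letters is not a site shown to be bound, and the window does not cover longer 3′ ends. Over all tested coding genes, the 2179 with a CPE in the window had a median log2 fold change of −0.38, and the 9509 without one a median of −0.41.

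The other genes of the pathway were taken from lists by role. Among 13 cleavage factors, all tested, limma called 0 (adjusted p below 0.1), found 2 at an unadjusted p below 0.05 (9.95% among all genes), both lower in P, and gave a median log2 fold change of −0.82. For *Cstf1*, *Wdr33* and *Fip1l1*, all 4 NP libraries lay above all 4 P libraries, as they did for 5.92% of all genes tested. *Cstf1*, a subunit of the cleavage stimulation factor, ranged from 121 to 416 FPKM in NP and from 5.97 to 66.1 FPKM in P (log2 fold change −2.59, limma adjusted p = 0.405). *Wdr33*, which contacts the hexamer beside Cpsf4, ranged from 14.2 to 32.9 FPKM in NP and from 1.12 to 11.6 FPKM in P (−2.12, adjusted p = 0.416), and *Fip1l1*, which tethers poly(A) polymerase to CPSF, had a log2 fold change of −1.52 (adjusted p = 0.528). *Sympk*, the scaffold symplekin, overlapped between the datasets, with 18.1 ± 7.49 FPKM in NP and 11.2 ± 7.5 FPKM in P (SD, n = 4 each).

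The most abundant CPSF-related mRNA was not one of the 10. *Cpsf4l*, named for its likeness to *Cpsf4*, was at 774 to 3364 FPKM in NP and 622 to 1446 FPKM in P, between 7.91 and 29.3 times the level of *Cpsf4* in the same library (log2 fold change −0.92, limma adjusted p = 0.608). No transcript stretch of *Cpsf4l* matched *Cpsf4* over at least 150 bases at 85% identity or more.

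Other poly(A) polymerases were also more abundant than *Papd4*. *Papd7*, a noncanonical poly(A) polymerase, was at 466 ± 230 FPKM in NP and 434 ± 208 FPKM in P (SD, n = 4 each), between 78.4 and 400.1 times the level of *Papd4* in the 6 libraries in which *Papd4* was above 0. These ratios share the uncertainty of the *Papd4* level, and the highest, in NP replicate 1, rests on 7 recovered steps of *Papd4*. *Fam46b* (797 ± 584 and 433 ± 277 FPKM in NP and P), *Fam46c* (608 ± 109 and 324 ± 95.6 FPKM), both of the Fam46 family of noncanonical poly(A) polymerases, and *Mtpap*, the mitochondrial poly(A) polymerase (98.6 ± 37.8 and 135 ± 75.0 FPKM, SD, n = 4 each), completed the abundant members of the list. Of the 9 genes, *Papolb*, *Fam46a* and *Fam46d* were listed at 0 in all libraries, limma called 0 of the 6 tested, none had an unadjusted p below 0.05, and the median log2 fold change was −0.18. For *Fam46c* all NP libraries (479 to 742 FPKM) lay above all P libraries (195 to 426 FPKM), with an adjusted p of 0.533.

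Among the poly(A)-binding proteins, which coat the finished tail, the embryonic form *Pabpc1l* was far above the somatic *Pabpc1* in each library, by a factor of 5.58 to 2799 in P and of up to 425 in NP. *Pabpc1l* was measured at 802 ± 68.6 FPKM in NP and 673 ± 541 FPKM in P (SD, n = 4 each), and *Pabpn1l*, a relative of the nuclear form, at 201 ± 56.0 and 144 ± 77.4 FPKM. Limma called 0 of the 5 tested, with a median log2 fold change of −0.55. A single gene had an unadjusted p below 0.05, *Pabpn1*, the nuclear poly(A)-binding protein, named after its values were seen, with a log2 fold change of −2.22 (unadjusted p = 0.0464). *Pabpc4* was at 32.5 ± 18.1 FPKM in NP and 36.5 ± 17.6 FPKM in P (SD, n = 4 each).

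Of 18 partners and opponents of CPEB, 16 were tested and limma called 0, with 1 at an unadjusted p below 0.05 and a median log2 fold change of −0.04. The gene below 0.05 was *Ybx2*, which encodes an RNA-binding protein that packages stored mRNAs, at 121 to 429.9 FPKM in NP and 27.7 to 120.3 FPKM in P, without overlap (log2 fold change −1.47, limma adjusted p = 0.479). *Zar1*, a maternal mRNA-binding protein, was at 465 ± 261 FPKM in NP and 1068 ± 534 FPKM in P (SD, n = 4 each), a log2 fold change of 1.22 with an adjusted p of 0.527. The kinases *Aurka* and *Plk1* and the cap-binding *Eif4e1b* had log2 fold changes of −0.25, 0.07 and −0.96.

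Of the mRNAs that this machinery is known to act on in maturing oocytes, 10 were listed, and they differed widely in level, down to *Dcp2* with 4.10 to 113 FPKM in P. *Plat* (2469 ± 1104 FPKM in NP and 2202 ± 1494 in P), *Mos* (1121 ± 371 and 1099 ± 540), *Ccnb1* (1287 ± 306 and 840.5 ± 388) and *Btg4* (782 ± 139 and 1101 ± 306, SD, n = 4 each) had log2 fold changes of −0.34, −0.09, −0.70 and 0.46. Limma called 0 of the 10 listed, none had an unadjusted p below 0.05, no gene of the list separated the NP from the P libraries, and the median log2 fold change was −0.08, above the median of all genes. Each of these lists was chosen by role, and their medians are read beside that of all genes without a test.

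**Figure D4:**
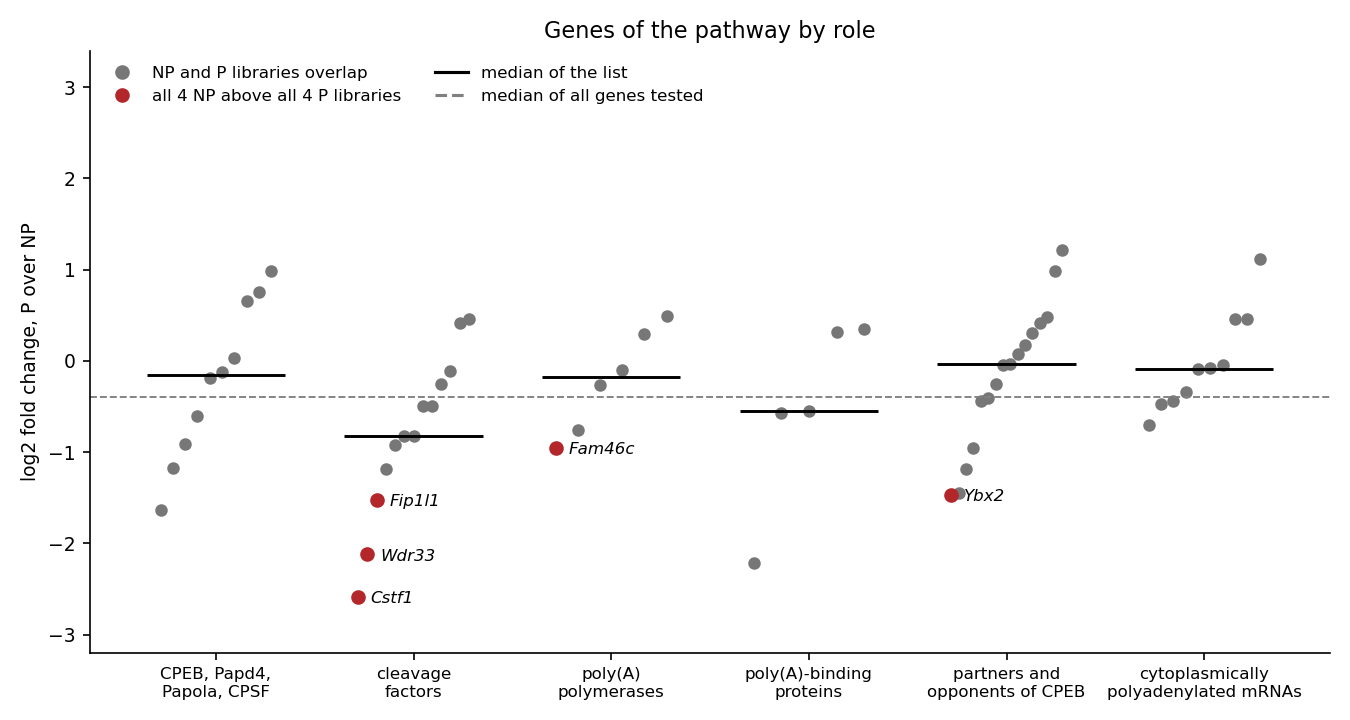
Log2 fold change (P over NP) of each tested gene, grouped into the 10 members (left) and 5 lists of the pathway, with the median of each list (black line) and of all genes tested (dashed line at −0.39). The 5 genes in red, for which all NP libraries lay above all P libraries as they did for 5.92% of all genes tested, belong to the cleavage factors (*Cstf1*, *Wdr33*, *Fip1l1*), the poly(A) polymerases (*Fam46c*) and the partners of CPEB (*Ybx2*).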

How the data were processed

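RNA from 4 NP and 4 P pools was sequenced in paired-end mode. Per the submitters' processing notes, reads were trimmed with Trim Galore 0.4.1 and aligned to GRCm38 using HISAT2 2.0.5. FPKM values per gene were made in Seqmonk and deposited by the authors on a linear scale, without further normalization. Libraries were grouped by title, and no library column was left without a label (0). The other deposited tables hold the authors' mean ratios and DESeq2 fold changes and p-values for subsets of genes and were not used. Since FPKM are not counts, no count model was fitted. limma 3.58.1 in R 4.3.3 (eBayes with trend, 2-sided) was run on log2(FPKM + 1) over all genes whose mean FPKM passed 0.1 in NP, in P or in both, at a Benjamini-Hochberg adjusted p of 0.1. The fit was also run on simulated data, whose outcome is not given here. A gene that was not called is not shown to be equal in NP and P. Fold changes of low genes are understated by the pseudocount of 1. Steps of FPKM were taken as whole within 0.01 of a step plus 2e-06 of their number, using annotated exon lengths for *Cpeb1*, *Cpeb3*, *Cpeb4*, *Papola* and *Cpsf4* and searched lengths for the others, for which the steps are a minimum. No source used here says if 1 step stands for a read or for a fragment, and amplified reads are not independent molecules. Sequences were read from the GENCODE M21 transcripts, with positions in GRCm38, and transcripts were compared with blastn 2.17.0. Within each list the up to 4 genes with the highest mean FPKM and every gene whose NP and P libraries did not overlap were named, and *Gapdh* was chosen after its values were seen. The members and lists were chosen with earlier results of these data known. Alternatives were another pseudocount, 2 other filters, 2 scalings, a replicate block and leaving out each library. Only some of the 3′-end sequences are reported here.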

Additional observations from a re-analysis of the deposited data

Results flagged for a closer look

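For 6 members, 1 library of the P dataset lay far from the other 3 on the FPKM scale. Its gap to the nearest was more of the range than Dixon's 95% limit for 4 values. For normally distributed values, chance passes this limit in about 1 of 20 groups. *Cpeb3* stood at 25.6 FPKM in P replicate 4, where the other P libraries were between 1.64 and 3.37 FPKM. *Cpsf1* stood at 38.7 FPKM in the same library, against 2.56 to 8.72 FPKM in the others. In P replicate 1, *Cpeb4* was at 14.9 FPKM against 0.821 to 2.40 FPKM, and *Cpsf2* was at 39.7 FPKM against 8.36 to 9.51 FPKM. In P replicate 2, *Papola* was at 80.0 FPKM against 5.21 to 17.0 FPKM, and *Cpsf3* was at 266 FPKM against 37.6 to 72.2 FPKM. The library that lay apart was the highest in each case, and for no member did an NP library lie apart. Among all genes tested, 30.5% had such a P library and 22.3% such an NP library. On the log2(FPKM + 1) scale *Cpsf2* was the only member with such a P library, against 20.2% of all genes.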

How the results depend on the processing

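No member was called under any of the 14 alternatives, and 125 of the 140 fold changes of single members kept their sign. The other 15 changed it. The 2 other filters and the replicate block cannot change a member's fold change, so the signs under them were kept by design. Quantile normalization gave 0.04 for *Cpeb2*, 0.44 for *Cpsf1* and 0.11 for *Cpsf3*, and median centring gave 0.36, 0.77 and 0.84 for these and 0.04 for *Cpsf4*. The fold change of *Cpeb4* became −0.10 with a pseudocount of 0.1, −0.25 without NP replicate 4 and −0.66 without P replicate 1. That of *Cpsf1* became 0.21 without NP replicate 4 and 0.31 without P replicate 2, and that of *Cpsf3* became 0.02, 0.06 and 0.25 without NP replicate 1, NP replicate 3 or P replicate 4. Over the 8 libraries left out, the fold change lay between −0.66 and 0.38 for *Cpeb4*, between −0.85 and 0.31 for *Cpsf1* and between −0.68 and 0.25 for *Cpsf3*. The members' median turned from −0.16 to 0.27 with quantile normalization and to 0.80 with median centring, and the number of members higher in P went from 4 to 7 and 8, as both scalings raised the median of all genes. With median centring 2 of 10 members, *Cpeb1* and *Cpsf2*, had an unadjusted p below 0.05 by limma, against 2896 of 14292 genes tested. The lowest adjusted p was then 0.166, for *Cpeb1*, whose adjusted p ranged from 0.166 to 0.798 over the alternatives. Without P replicate 4, 1 of 10 members, *Cpeb3*, had an unadjusted p below 0.05, against 1317 of 14262 genes tested. Leaving out single libraries gave members' medians between −0.41 and −0.05, 3 to 5 members higher in P and 0 members called.

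The 3 genes called among all genes became 5 with a pseudocount of 0.1 or a filter at a mean FPKM of 1, and 0 without a filter, with quantile normalization and with median centring (1510, 942 and 2896 genes at an unadjusted p below 0.05), and 0 to 5 when single libraries were left out. The cause was not tested. Taking the replicate number as a block left 1 gene and 0 members called. As a check of the pairing, deviations of NP and P libraries of the same number from their means had correlations of 0.139, 0.0518, 0.251 and 0.155, and those of other numbers −0.135 to 0.136, over 11374 genes. Each P library correlated best with the NP library of its own number, but NP replicate 2 correlated best with P replicate 1 and its own pair stayed under 0.1. Both pools come from the same 4 gradients, but no source used here says that equal numbers mark 1 gradient, so the numbers were not taken as a pairing. Within all 4 such pairs *Cpeb1* was higher in P and *Cpeb3* lower in P, and under the block their adjusted p by limma were 0.563 and 0.428. *Cpeb2* and *Papd4* had the fewest recovered steps, 347 and 200 in total, and the part of depth in their values was not tested. The results for all members rest on 4 libraries per dataset.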
